A study of Mus musculus with 2 samples.

Results

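The features described here are the long intergenic noncoding RNA (lincRNA) intervals of an Agilent mouse array. These are stretches of the mouse genome that the array's annotation calls intergenic, each covered by probes of 60 bases to 1 strand or to both. A probe was taken as a member where its gene name, systematic name or description held the word lincRNA, or where its systematic name was a chromosome interval. The rule found 16251 of the 55681 non-control probes. They lay in 3555 intervals, of which 1067 had probes to both strands, giving 4622 targets when interval and strand were counted together. Not all are clear of genes: 270 of these targets held a named-gene probe on their own strand. Most members carried only the coordinates of their interval, and 57 probes carried the names of 12 known RNAs. The choice used the array's annotation alone and no measured value.

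The RNA came from CMT93, an established line of mouse colon carcinoma cells. Its labels give rectum as the tissue, C57BL/ICRF as the strain and 19 months as the age. Cells for 1 array were left as controls. Cells for the other were given lipopolysaccharide (LPS), a bacterial cell wall glycolipid, for 24 h at a dose of 3 µg/mL. Both cultures were grown in DMEM, and the labels name no further agent or allele in either.

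With a single array for each group, differences are given without replicate error and without a test, and 2 arrays set the limit of precision. They were read in 1 scan of 1 slide. Of 59305 spots on each array, the share well above background was 55.8% for control and 54.7% for LPS, and none was saturated. Among the marker genes looked at, 7 of 8 epithelial genes were measured on both arrays, against 1 of 7 leukocyte, 2 of 5 fibroblast and 2 of 4 endothelial genes. The epithelial genes differed by -0.72 to -0.01 on the log2 scale between LPS and control and the fibroblast genes Col1a1 and Col1a2 by 0.33 and 0.91. Pdgfra, on the fibroblast list too, went the other way, from -4.25 to -7.18 and below background with LPS RNA, and Col3a1 and Dcn were above background on neither array. The part of these markers in the results below was not tested. In such bulk RNA, fewer cells of a type and less RNA per cell cannot be told apart. Of a list of 30 genes known to respond to LPS, 29 were counted, since the name filter left out C3. Of these, 22 were measured, of which 15 were 2-fold or more above control with LPS and none was 2-fold below it. Over all 13094 measured named genes, 205 were 2-fold higher and 80 lower. The list was chosen with earlier results of these data known.

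lincRNAs are transcripts that lie between protein-coding genes, are usually spliced and polyadenylated like messenger RNAs, and encode no known protein. As background, many are present at low levels and in few cell types, and some act in the nucleus, where they scaffold nuclear bodies, recruit chromatin proteins or regulate genes close to them. In macrophages several are known to be induced by bacterial products. Early catalogues of lincRNAs were drawn in part from chromatin marks over regions whose transcripts were not yet mapped.

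The probes themselves show what the array could measure. The following members are printed because the results turn on them, each 5′ to 3′ as deposited, with its position in mm9, the build the array files name. Capitals mark a run of at least 20 bases that is identical, in the same sense, in a probe for a named gene. The first set belongs to the brightest members.
Interval in the Malat1 locus, chr19:5802130-5802189, minus strand: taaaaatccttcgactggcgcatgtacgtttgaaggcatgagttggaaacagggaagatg
Interval near B3gnt2, chr11:22686751-22686810, minus strand: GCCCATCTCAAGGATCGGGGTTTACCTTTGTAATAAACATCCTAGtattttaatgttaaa
Interval near Foxp4, chr17:48073450-48073509, plus strand: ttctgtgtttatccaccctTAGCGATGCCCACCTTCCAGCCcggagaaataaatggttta
Interval holding Rn45s, chr17:39983218-39983277, plus strand: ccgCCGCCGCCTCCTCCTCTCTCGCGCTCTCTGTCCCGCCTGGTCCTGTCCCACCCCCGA
Interval on chromosome 7, no probe position given: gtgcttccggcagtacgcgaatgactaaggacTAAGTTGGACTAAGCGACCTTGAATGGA

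In these lines the capitals are shared with probes for Rps16 (45 bases), Mif (22 bases), Rn45s (57 bases) and Rps29 (28 bases), in that order. Rps16 and Rps29 encode ribosomal proteins, Mif encodes a cytokine, and Rn45s is the precursor of ribosomal RNA. The Malat1 line shares no such run with a named-gene probe. In all, 124 members shared a run of at least 20 bases with a named-gene probe.

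The second set comes from intervals in which several probes differed together between the arrays. The interval near Nab1, a transcriptional corepressor gene, gave these 3 probes.
First probe, chr1:52514123-52514182, minus strand: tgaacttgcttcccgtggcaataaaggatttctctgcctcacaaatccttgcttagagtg
Second probe, chr1:52514207-52514266, minus strand: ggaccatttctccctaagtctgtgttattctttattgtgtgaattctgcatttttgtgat
Last probe, chr1:52514267-52514326, minus strand: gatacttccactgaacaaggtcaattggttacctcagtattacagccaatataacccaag
The interval that holds Crnde, a long noncoding RNA gene known for its raised level in colorectal tumours, gave a probe that shares 47 bases with the Crnde probe and a neighbour that shares no run.
Shared, chr8:94850318-94850377, minus strand: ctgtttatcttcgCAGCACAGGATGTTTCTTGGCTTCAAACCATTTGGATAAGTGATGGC
Neighbour, chr8:94850441-94850500, minus strand: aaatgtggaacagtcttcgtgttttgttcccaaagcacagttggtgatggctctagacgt

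The last set comes from targets in which 1 probe stood apart from its neighbours. The 2 probes printed for the interval nearest Tusc3 lie end to end, as do those of H19, an imprinted noncoding RNA. The last line is the only member past 2-fold in the brightest of the 4 brightness classes used below.
Interval nearest Tusc3, apart, chr8:40257983-40258042, plus strand: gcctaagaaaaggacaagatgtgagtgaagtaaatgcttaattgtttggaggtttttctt
Interval nearest Tusc3, next, chr8:40258043-40258102, plus strand: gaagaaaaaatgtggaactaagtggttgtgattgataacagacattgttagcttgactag
H19, apart, chr7:149762113-149762172, minus strand: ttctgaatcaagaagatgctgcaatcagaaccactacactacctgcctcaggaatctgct
H19, next, chr7:149762173-149762232, minus strand: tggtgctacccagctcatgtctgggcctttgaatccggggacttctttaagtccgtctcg
Interval nearest H2ac15, chr13:21858407-21858466, minus strand: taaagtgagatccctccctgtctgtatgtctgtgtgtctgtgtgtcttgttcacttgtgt

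Fewer lincRNA probes than gene probes gave a signal in these cells. After 2 probes marked as outliers were dropped, 16249 members were left. Of these, 41.0% (95% Wilson interval 40.3 to 41.8) were well above background with control RNA and 39.3% (38.6 to 40.1) with LPS RNA. The same shares were 66.3% and 65.6% for 28478 probes of named genes, and 55.1% and 54.0% for all non-control probes. These intervals treat probes as independent draws, although probes of 1 interval share a target. On both arrays together, 5984 members (36.8%) were above background, against 64.1% of the named-gene probes, and such probes are called measured from here on. A further 686 members (4.22%) passed with control RNA alone and 405 (2.49%) with LPS RNA alone, and 56.5% with neither. In that order, the shares were 2.95%, 1.86% and 43.0% for all non-control probes. For named-gene probes they were 2.15%, 1.46% and 32.3%.

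**Figure D1:**
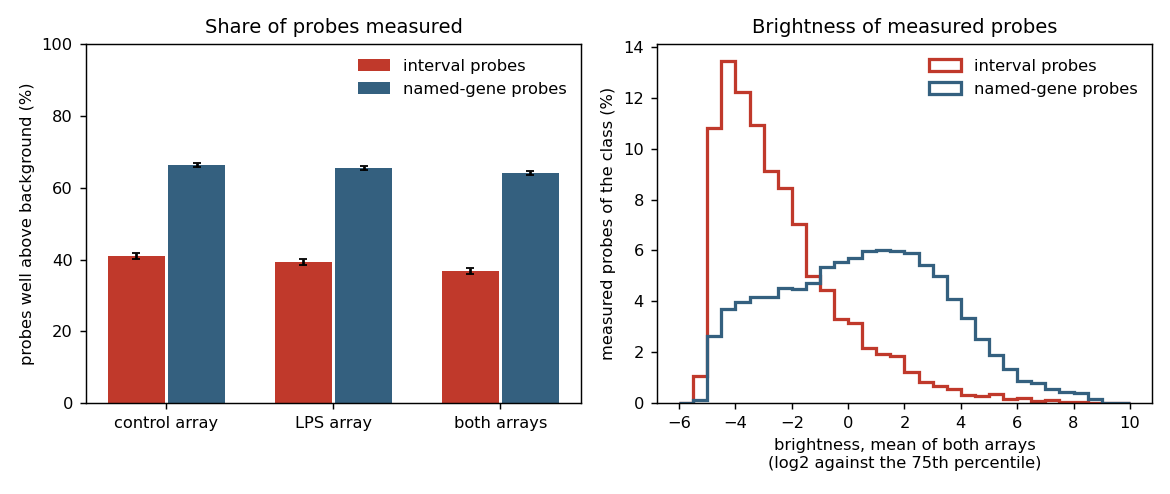
Left, percent of interval probes and named-gene probes well above background on the control array, the LPS array and both, with 95% Wilson intervals as error bars. Right, the brightness of the measured probes of each class, as the mean log2 signal of both arrays against each array's 75th percentile, where interval probes crowd at the dim end.

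Targets were often measured with some of their probes and not others. A target had a median of 3 probes and at most 10, and 2801 of the 4622 targets had at least 1 measured probe, while 1437 had no probe above background on either array. Among the 3932 targets with at least 2 probes, every probe was measured in 651, some but not all in 1864 and none in 1417. The measured share varied with chromosome from 26.6% of the members on chromosome 9 to 46.3% on chromosome 19, and with interval length from 32.3% under 1 kb to 39.7% between 1 and 10 kb. Interval lengths ran from 62 bases to 7128487 bases, with a median of 7328.

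Detection varied little with a probe's place in its target and more with its base composition. The first probe of a target along its strand was measured in 36.2% of 3920 targets and the last in 37.5%. Members with a GC content under 35% were measured in 23.8% of cases and those at 55% or more in 55.6%, a span wider than the 58.3% to 72.8% of named-gene probes in the same GC classes. The polyadenylation hexamer AATAAA, searched on the probe's own strand, was found in 3.92% of members and in 13.3% of named-gene probes, whereas its reverse complement TTTATT was found in 3.03% and 4.27%. Members with AATAAA were measured in 37.2% of cases and those without in 36.8%. A match of letters is only a description.

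Measured members were also dim. Brightness is given as log2 signal against the array's 75th percentile, and it depends on each probe's sequence and place, so no order of transcript levels is read from it. The median measured member stood at -2.88 with control RNA and -2.93 with LPS RNA, intensities of 88.6 and 82.9. The median named-gene probe stood at 0.58 and 0.57, intensities of 972 and 936. The measured named-gene probes were divided into 4 brightness classes of equal number. Of the measured members, 68.8% lay in the dimmest class and 3.44% in the brightest.

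Of the 10 brightest members, the 5 printed above lie in the Malat1 locus or share a run with a named gene. The brightest of all was the member in the Malat1 locus printed above, at 8.20 with control RNA and 8.31 with LPS RNA. Malat1 is a nuclear noncoding RNA of nuclear speckles. Its difference of 0.11 was matched by 0.12 and 0.14 for the other probes of the same interval. Next came the probe that shares 45 bases with Rps16, at 8.01 on both arrays.

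The probe that shares 28 bases with Rps29 stood at 7.73 on each array, and the Rn45s probe at 7.64 and 7.71. The probe that shares a run with Mif went from 7.55 to 8.02, a difference of 0.46, the largest among the 10 brightest members, whose other differences ran from -0.02 to 0.11. Of the 124 members that share a run with a named-gene probe, 74.2% were measured, with a median brightness of 1.97. Without such a run 36.5% were measured, with a median of -2.96. For those members the array cannot tell the interval's RNA apart from that of the named gene.

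Few members differed 2-fold between the LPS and control arrays. Of the 5984 members measured, 53 (0.886%) were 2-fold or more above control with LPS and 40 (0.668%) were 2-fold or more below it. Over all 29054 measured non-control probes the shares were 1.29% and 0.513%, and over 18257 named-gene probes 1.39% and 0.520%. The order of these shares depended on the settings. With the laxer flag for signal positive and significant, 3.78% of members were higher and 4.03% lower, against 2.53% and 1.76% of named-gene probes, and with no filter 4.70% and 4.79%, against 3.16% and 2.60%. The higher share of members was thus below that of named-gene probes in the main setting and above it under these filters. At 1.5-fold 180 members (3.01%) were higher and 206 (3.44%) lower, beside 3.39% and 2.66% of all probes and 3.59% and 2.48% of named-gene probes. At 4-fold the members gave 10 in each direction, 0.167% each. The shares at 4-fold were 0.327% and 0.0654% of all probes, and 0.416% and 0.0438% of named-gene probes. The median member differed by -0.04 on the log2 scale, with quartiles of -0.20 and 0.12, beside -0.03 for all probes.

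The differences were concentrated among dim probes. Of the 93 members past 2-fold, 91 lay in the dimmest class of brightness, where 1.24% of the members were higher and 0.972% lower, against 2.48% and 1.38% of named-gene probes in that class. Members are not printed repeatedly, so the only error comes from 254 other probes printed several times on the slide. The median SD of their log2 difference over spots was 0.19 in the dimmest class and 0.07, 0.04 and 0.03 in the brighter ones. It covers the slide and not the cultures. With normexp background correction, which adds an offset to all signals, the counts were 8 higher and 8 lower members, 0.134% each, against 0.854% and 0.186% of named-gene probes, so the lower share of members was then also below that of named-gene probes.

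**Figure D2:**
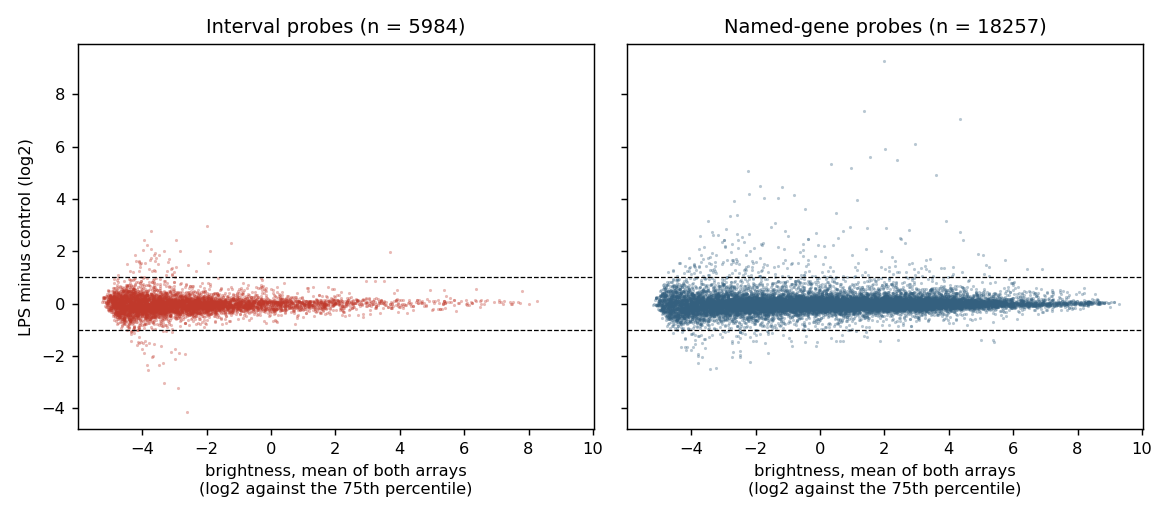
LPS minus control log2 difference (vertical) against brightness as the mean of both arrays (horizontal, log2 against the 75th percentile) for the 5984 measured interval probes and 18257 measured named-gene probes, with dashed lines at 2-fold. Interval probes past 2-fold sit almost only at the dim end, while named-gene probes reach 9.26 across a wide range of brightness.

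Neighbouring probes of the same interval rarely shared these differences. Of the 93 members past 2-fold, 65 had another measured probe in the same interval on the same strand. The median of those other probes was at least 0.5 on the log2 scale in the same direction for 5, smaller for 58 and at least 0.5 the opposite way for 2. Among named-gene probes past 2-fold, 113 had another measured probe of the gene, and the others moved the same way for 83, less for 30 and the opposite way for 0. In the dimmest class of brightness the same counts were 5 of 64 for members and 28 of 49 for named-gene probes.

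**Figure D3:**
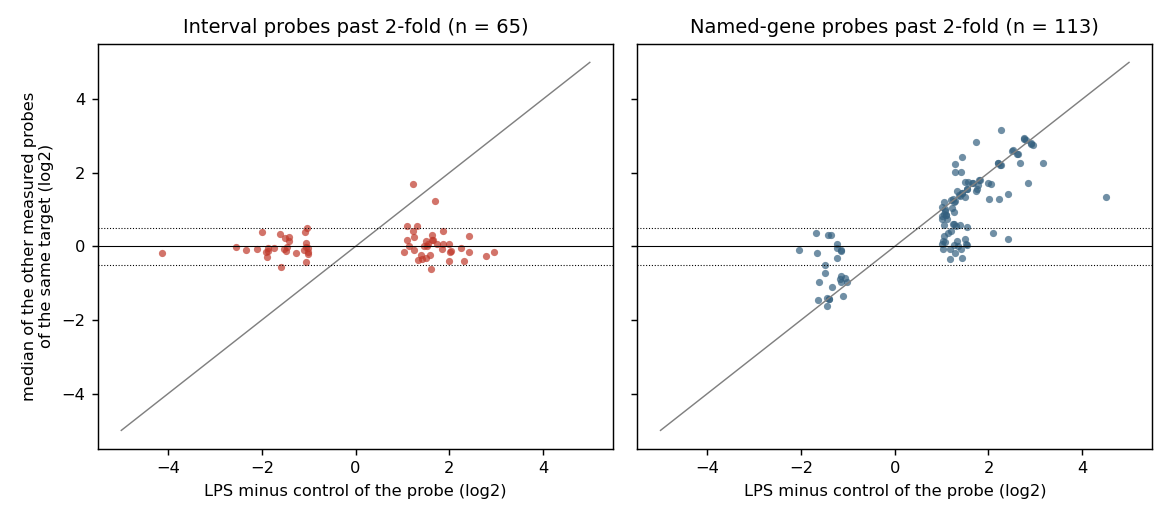
For each probe past 2-fold, its LPS minus control log2 difference (horizontal) against the median difference of the other measured probes of the same interval and strand or of the same gene (vertical); the diagonal marks equal values and dotted lines mark 0.5 in each direction. Most of the 65 interval probes lie near 0 and the 113 named-gene probes mostly along the diagonal.

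The largest differences among members at or above the members' own median brightness, -2.93 over both arrays, show this pattern. Those nearest Tusc3, Rbm12b1 and Rbpj still lay in the dimmest class of brightness. The member nearest Tusc3, printed above, went from -0.53 on the control array to -4.67 on the LPS array, a difference of -4.14. The probe that begins at the very next base differed by -0.30, from -4.26 to -4.56, and the remaining probe by -0.06. A member 22.3 kb from Rbm12b1 went from -3.46 to -0.51, a difference of 2.95, while the other measured probes of its interval differed by -0.54 and 0.26.

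A member 2.63 kb from Hnrnpr, a gene of an RNA-binding protein, went from -2.40 to -0.09, a difference of 2.31, and 3 other measured probes of that interval differed by -0.78 to -0.21. A member 106 kb from Rbpj, the transcription factor gene of Notch signalling, went from -1.28 to -4.49, a difference of -3.21. None of the 4 other probes of its interval was measured on both arrays, and the probe that begins at the next base went the other way, from -7.33, not above background, to -4.63. In each of these intervals, then, 1 probe stood apart from the rest or had no measured companion.

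One member of the brightest class was past 2-fold. It is the only probe of its interval, chr13:21856097-21859200 on the minus strand, and went from 2.70 on the control array to 4.67 on the LPS array, a difference of 1.97 that was between 1.94 and 1.99 under the 6 other normalizations and background settings. The interval lies in a cluster of histone genes. The measured histone gene probes within 20 kb, for H2ac15, H4c12, H1f5 and H3c11, were all lower on the LPS array, with differences from -0.39 to -0.17. The spot SD for probes of this brightness was 0.03, and with 1 array a group nothing more can be said of its error.

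Only 1 interval had all of its measured probes, at least 2 in number, at least 2-fold higher, and none had all of them 2-fold lower. This is chr7:106525007-106525661 on the minus strand, whose measured probes went from -4.02 to -2.31 and from -3.83 to -2.60, differences of 1.71 and 1.23. The nearest named gene, Serpinh1, which encodes a collagen chaperone, lies 31.3 kb away and differed by -0.19. For comparison, 25 of the 4092 named genes with at least 2 measured probes had all of them 2-fold higher and 3 had all of them 2-fold lower.

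Across all targets, probes of an interval resembled one another less than probes of a gene did. The 2 brightest measured probes of a target had differences that correlated over 1510 targets with Pearson's r of 0.22 and Spearman's rho of 0.36. Over 4092 named genes r was 0.71 and rho 0.61. These correlations run across targets on the same pair of arrays, and targets are not replicates. The median SD over the probes of a target was 0.15 for intervals and 0.07 for named genes, and intervals were dimmer, with values for brightness given above. The part of brightness in this gap was not tested.

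Targets with at least 3 measured probes were then taken alone. The median SD over their probes was 0.155, beside 0.153 for targets with at least 2. Of 888 targets with at least 3 measured probes, none reached 2-fold by the median of its probes, and the medians ran from -0.80 to 0.86. In 128 of them all measured probes were above 0, in 252 all were below 0, and in 508 they lay on both sides. These signs depend on the scaling, and no such counts are given for named genes. The median of the target medians was -0.05, and the median member went from -0.04 to 0.01 with cyclic loess. The highest and lowest of these medians are described next, as values chosen for their size.

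The highest median belonged to the interval chr1:52507332-52514490 on the minus strand, whose 3 measured probes are printed above. They went from 3.09 to 3.93, from 2.79 to 3.67 and from 2.52 to 3.38, differences of 0.85, 0.88 and 0.86. The fourth probe, at the far end of the interval, was not above background on either array. An interval nested in it, chr1:52507374-52514124, had 5 dimmer probes with differences from 0.42 to 1.32. Nab1, whose probe lies 0.806 kb from the nearest member and upstream of it on the same strand, went from 1.33 to 2.26, a difference of 0.93. All 8 measured probes and the gene were thus higher on the LPS array, the 3 bright probes by nearly the same amount as each other.

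The interval chrX:90997595-91009570 on the minus strand held 8 measured probes, the lowest at 0.41 and the highest at 0.63. The other 2 of its 10 probes were not measured, and 1 of them was above background with control RNA alone. Its brightest probe went from 1.46 to 2.09. The nearest named gene, Pcyt1b, which encodes an enzyme of phosphatidylcholine synthesis, lies 5.83 kb away and differed by 0.27. Further intervals whose probes were all higher were chr8:108120629-108123201 on the plus strand, with 3 probes from 0.64 to 0.86, and chr5:15146475-15170100 on the plus strand, with 4 probes from 0.58 to 0.60.

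Several of the lowest medians lay in or beside named long noncoding RNA genes. The interval chr8:94841965-94881130 on the minus strand, which holds Crnde, had 5 measured probes that were all lower on the LPS array, by differences from -0.92 to -0.49. The Crnde probe itself went from 0.92 to 0.35, a difference of -0.58. The interval chr11:16834711-16851125, which holds Eldr, had 3 probes from -0.89 to -0.61, and the Eldr probe differed by -0.42. The interval chr2:128137419-128141735, 4.44 kb from the probe for Morrbid, a noncoding RNA known for repressing the death-promoting gene Bcl2l11 in myeloid cells, had 3 probes from -0.71 to -0.66. Morrbid itself went from -2.91 to -3.49, a difference of -0.58.

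A second interval on the same strand, chr2:128211990-128215223, 69.9 kb from the Morrbid probe, had probes at -0.78, -0.69 and 0.21, so its probes were divided. The interval chr1:135956616-135957485 on the minus strand, 12.6 kb from Fmod, a gene of a matrix proteoglycan, had 3 probes from -0.77 to -0.69, while Fmod on the opposite strand differed by -0.26. The lowest median, -0.80, was that of chr10:18104309-18104881 on the plus strand, with 3 probes from -0.94 to -0.73 and its nearest named gene, Nhsl1, 149 kb away. With normexp its median was -0.35, that of the Eldr interval -0.27 and that of the Crnde interval -0.45, against 0.85 for the first Nab1 interval.

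**Figure D4:**
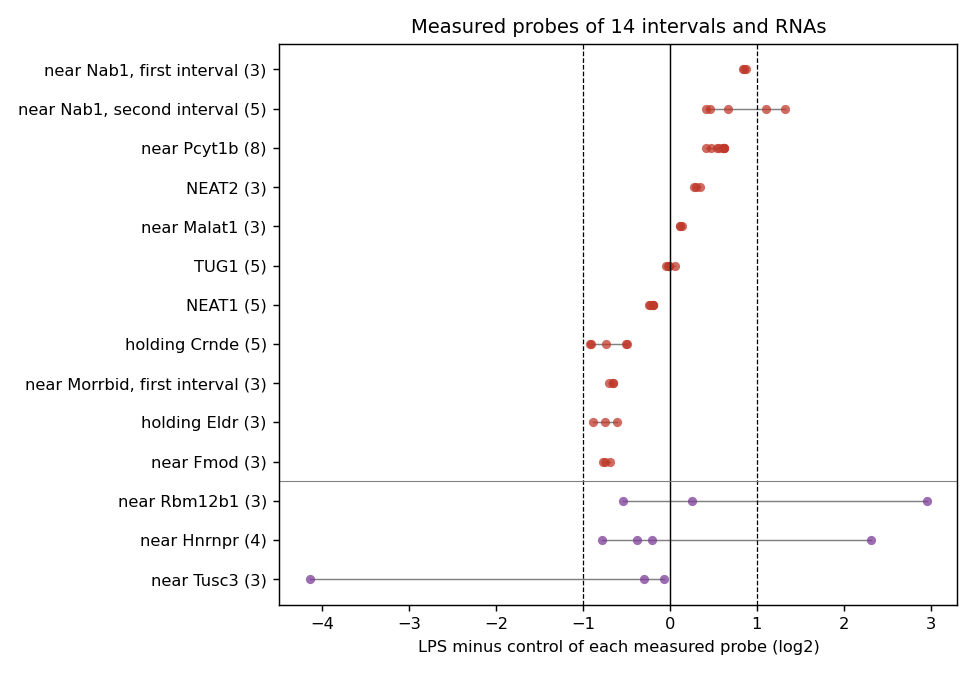
LPS minus control log2 difference of each measured probe (points) of 11 intervals and RNAs and, below the line, of 3 intervals in which 1 probe stood apart. The number of measured probes is in parentheses, grey bars join the lowest and highest, and dashed lines mark 2-fold. Spread varies among the 11, and probes of the second Nab1 interval run from 0.42 to 1.32. Probes of the first Nab1 interval lie between 0.85 and 0.88, and those of the interval nearest Tusc3 between -4.14 and -0.06.

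Of the 12 RNAs given by name, NEAT1, NEAT2 and TUG1 were measured with every probe. NEAT1, the scaffold of nuclear paraspeckles, had 5 probes that stood between 4.52 and 5.42 with control RNA and between 4.29 and 5.22 with LPS RNA, with differences from -0.24 to -0.19. NEAT2, an older name of Malat1, had 3 probes that went from between 1.44 and 1.89 to between 1.74 and 2.23, with differences from 0.27 to 0.34. TUG1, an RNA that binds chromatin-modifying complexes, had 5 probes with differences from -0.05 to 0.06. NEAT1 was slightly lower and NEAT2 slightly higher on the LPS array under every normalization run, while the median of TUG1 changed sign with cyclic loess and median centring. The 3 probes in the interval of the Malat1 locus, 6.36 to 6.50 kb from the Malat1 probe, differed by 0.11 to 0.14.

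The other named RNAs had at least 1 probe that was not above background on either array. KCNQ1ot1, an imprinted RNA antisense to Kcnq1, had 4 of 5 probes measured, with differences from -0.27 to 0.01. Its brightest probe went from 1.31 to 1.24, and its other measured probes stood between -4.76 and -3.60 with control RNA. NRON, known as a repressor of the transcription factor NFAT, had 2 of 5 probes measured, at 0.02 and 0.30. HOTAIR, which lies in the Hoxc cluster, had 1 of 5 probes measured, going from -3.94 to -3.43. BRN1-A had 1 of 4 probes measured, with a difference of -0.11.

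H19 had 1 probe measured, going from -4.70 to -4.64, and the first H19 probe printed above passed with LPS RNA alone, at -2.53. Its bound was at least 7.09-fold higher, counted against the lowest signal above background on the control array. Its 3 remaining probes were above background on neither array, so 1 of 5 probes showed a difference. XIST, the RNA that silences an X chromosome, had 1 of 5 probes above background, with control RNA alone, at -2.83. The same held for PINC, at -5.05. TSIX, the antisense partner of XIST, and lincP21, a target of p53, had no probe above background on either array.

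Probes above background on 1 array only gave many such bounds. Of the 405 members seen with LPS RNA alone, 149 (36.8%) had a bound of at least 2-fold, beside 40.8% of all non-control probes and 42.4% of named-gene probes of this kind. Of the 686 seen with control RNA alone, 94 (13.7%) did, beside 15.6% and 15.7%. The highest bound in each direction was at least 10.4-fold higher for a member of chr1:53215418-53244461, nearest Pms1, and at least 13.2-fold lower for a member of chr1:167797581-167803031, nearest Cd247. In the latter interval 6 other probes were measured and differed by -0.37 to 0.45. Where members with such a bound had measured neighbours, the median of the neighbours differed at least 0.5 on the log2 scale the same way for 4 of 72 and 4 of 46.

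The strands of an interval were compared where both had probes. Of 1067 such intervals, 524 had a measured probe on both strands, 400 on 1 strand and 143 on neither. The brightest measured probes of the opposite strands differed between the arrays with the same sign in 276 of 524 intervals. Their differences correlated with r of 0.005 and rho of 0.06.

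Distance and strand relative to the nearest named gene separated the members more clearly. Of 16131 members with a position, 65.5% lay within 50 kb of a named-gene probe, with a median distance of 27969 bases. Within 5 kb of a gene's probe on the same strand, 60.1% of 1376 members were measured. On the opposite strand at that distance 30.9% of 1418 were, and beyond 5 kb the share was at its lowest, 29.0%, on the opposite strand at 200 kb or more. Intervals that hold a named-gene probe on their own strand had 57.4% of their members measured, against 35.5% in the others.

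Members close to a gene on its strand also tended to differ between the arrays as the gene did. Over 787 pairs of a measured member and a measured gene within 5 kb on the same strand, covering 204 genes, the differences correlated with r of 0.53 and rho of 0.55, and 69.1% had the same sign. Over 388 pairs on opposite strands r was 0.17 and rho 0.23, with 60.8% of the same sign. Members on the same strand were brighter, with a median of -1.99 against -3.26. In the dimmest class alone r was 0.42 over 415 same-strand pairs and 0.17 over 284 opposite-strand pairs. The shares of the same sign in that class lay closer together, at 62.4% and 59.5%.

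The 69 pairs whose probes overlap the gene's probe had r of 0.85. Downstream of the gene's probe r was 0.54 and rho 0.48 over 514 pairs. Upstream r was 0.41 and rho 0.60 over 204, so the order of the 2 sides depended on the measure. Without the 8 probes near Nab1 r was 0.47 over 779 same-strand pairs, and without members that share a run with a named-gene probe 0.51 over 734. From 5 kb outwards r lay between -0.04 and 0.19 in every class of distance and strand. These values are descriptions across pairs that share both arrays and often share a gene. Whether such a member lies in the gene's own transcript was not tested.

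**Figure D5:**
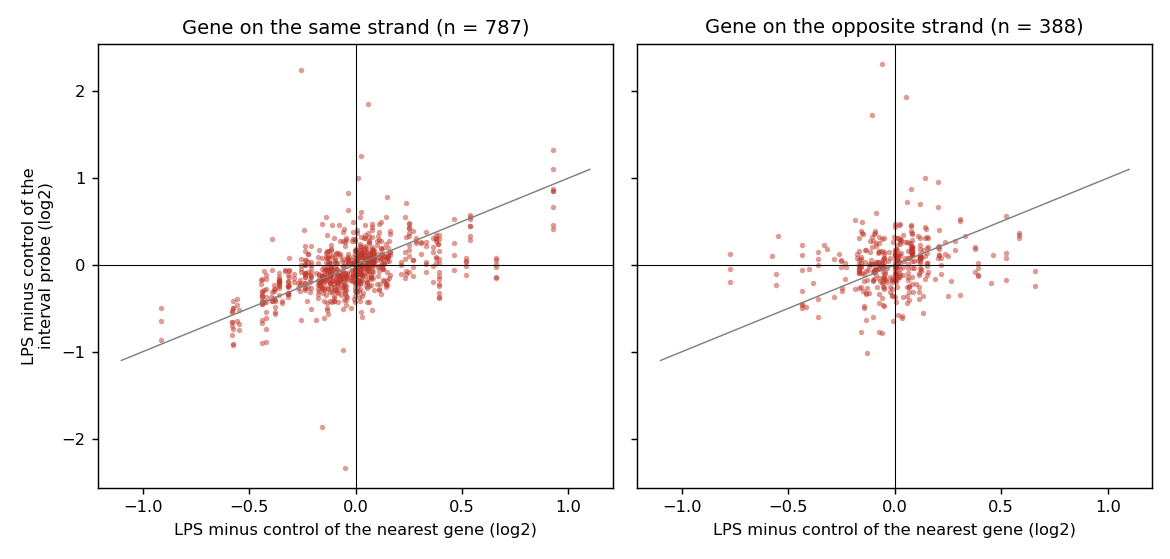
LPS minus control log2 difference of each measured interval probe (vertical) against that of the nearest named gene (horizontal) for probes within 5 kb, on the same strand (787 pairs) and on the opposite strand (388 pairs); the grey line marks equal values. The 8 same-strand probes of Nab1 stand at the right end, all above 0, and many same-strand pairs follow the line more closely than the opposite-strand pairs.

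Among genes with a same-strand member within 5 kb, 9 differed at least 0.5 on the log2 scale, and 42 of the 47 members beside them had the gene's sign. Nab1, Crnde and Morrbid are described above. Acad12, a gene of the acyl-CoA dehydrogenase family, differed by -0.91, and the 3 members within 0.041 kb by -0.86 to -0.50. Catsperd, a gene of the sperm calcium channel, differed by -0.55 and its 3 members by -0.75 to -0.51. Mgam, which encodes the brush border enzyme maltase-glucoamylase, differed by 0.54 and its 7 members by 0.29 to 0.57. At Acad12, Catsperd, Crnde and Morrbid, and at Saysd1 described next, the nearest member overlapped the gene's own probe.

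Members beside other genes of this group did not all follow. Btbd19 differed by -0.56 and its 3 members by -0.64 to -0.39. Saysd1 differed by 0.66, but its 6 members lay between -0.15 and 0.08, and Ttc37 differed by 0.52 with 5 members between -0.11 and 0.08. On the opposite strand 10 of 16 members beside 7 such genes had the gene's sign, and 1 differed at least 0.5 the same way, against 26 of 47 on the same strand.

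Few members lay near a gene that differed strongly. Within 50 kb, 21 of 3614 pairs joined a measured member to a gene at least 2-fold different, covering 12 genes, and all 21 members lay over 10 kb from the gene's probe. Of these members 14 had the gene's sign and 0 were 1.5-fold in its direction. Over 50 kb from such a gene, 8 of 16 members had its sign, and in both sets several members shared a gene. Since 3.01% of all measured members were 1.5-fold higher and 3.44% lower, a count of 0 among 21 is near the background and shows no difference from other members. The 49 members past 2-fold within 50 kb of a measured gene all had a gene under 2-fold, as did all but 21 of the 3614 pairs.

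Nfkbia, which encodes the inhibitor IκBα and is a direct target of NF-κB, went from 2.98 to 5.72, a difference of 2.74. A member of chr12:56564855-56565310 on its strand, 25.8 kb away, went from -3.52 to -3.09, a difference of 0.43. Another probe of that interval passed with LPS RNA alone, with a bound of at least 2.55-fold, and the remaining one was above background on neither. In the interval chr12:56607657-56613582, 17.4 kb from Nfkbia, 1 of 5 probes was above background, with LPS RNA alone, and had a bound of at least 1.34-fold. These are the only members near Nfkbia that were above background on any array, and with 1 probe measured on both they give no agreement between probes.

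Spink4, a gene of a peptide secreted by goblet cells, went from -0.73 to 1.52, a difference of 2.26. The 6 measured members of 2 overlapping intervals on its strand, 16.9 to 17.2 kb away, differed by -0.31 to 0.38 with both signs. Beside the antioxidant enzyme gene Sod2, which differed by 1.07, a member 19.6 kb away differed by -0.21. A member 23.6 kb from Itln1, a gene of a secreted lectin that differed by 1.67, differed by 0.10. Beside Klf2, a transcription factor gene that differed by -1.02, the pair of measured members, up to 16.5 kb away, differed by 0.01 and -0.07.

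Of the list of genes known to respond to LPS, 3 had members within 50 kb as their nearest named gene: Nfkbia, Irf1 and Socs3. Of their 44 members 18 were measured, and 0 were past 2-fold, with a median of 0.05 and a range from -0.82 to 0.63. Over all measured members 0.886% were 2-fold higher and 0.668% lower, so a count of 0 in so few is near the background. Irf1 and Socs3 themselves differed by 0.17 and 0.35. Of a list of 30 genes of transcriptional and growth regulators, 10 had members, with 27 of 77 measured and 0 past 2-fold, again near the background, from -0.89 to 0.85. The measured members lay near 9 of these genes, Klf5, Klf4, Myc, Jun, Bcl6, Hoxb9, Cdkn1a, Six2 and Sall4, and those near Tgif1 were above background on 1 array at most. The lowest was a member 15.4 kb from Jun, which differed by -0.65 itself, and the highest one 16.3 kb from Klf5, which differed by -0.04.

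Named long noncoding RNA genes were also looked at through named-gene probes, which are not members. Members also cover some of these genes, among them Neat1, Malat1, Tug1, Kcnq1ot1 and Crnde, so the list is not a separate set. Of 62 such genes looked for, 41 were found among the named genes of the array and 28 were measured. H19 is not among the 41, because the name filter took its symbol for that of a clone. It is described above through its members alone. None was past 2-fold in either direction, beside 205 of 13094 measured named genes that were higher and 80 that were lower. A count of 0 in 28 is near that background. The 28 measured genes had a median difference of -0.10 and ran from -0.58 for Morrbid, followed by Crnde at -0.58, to 0.38 for Malat1. Dancr differed by -0.44, Gas5, a host of small nucleolar RNAs, by -0.14, Norad by -0.01 and Pvt1 by -0.04. The telomerase RNA gene Terc differed by -0.33. Platr21 and Jpx were above background with control RNA alone, going from -2.32 to -7.05 and from -4.92 to -5.35. Ptprv, a receptor tyrosine phosphatase gene that the list also held, was above background with LPS RNA alone, from -7.49 to -4.94.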

How the data were processed

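The authors deposited spot intensity values of 2 one-colour (Cy3) Agilent arrays that Feature Extraction software (Agilent, version 10.10.1.1, per the file headers) had written, in which the processed intensity is background-subtracted and positions refer to mm9. Per the labels' protocols, labelling began from poly dT priming with a T7 promoter tail. Both samples carry one treatment text, and its dose and time were assigned to the sample titled as LPS stimulated.

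From there, 223 spots marked as outliers on either array were left out, log2 was taken of the processed intensity, each array's 75th percentile was subtracted, and spots of a probe were averaged. A probe was measured where it was well above background on both arrays. Differences are LPS minus control. A gene with several probes was given by the brightest measured one, and its symbol came through RefSeq accessions (GRCm38.p6 table, names only; 28361 of 39428 probes outside the intervals, 71.9%). Names that looked like clones or accessions were not counted as named genes. This filter went by the form of the name and was not exact. It also left out gene symbols made of a letter and digits, such as H19 and C3, and it kept the clone name 4932416E17. Exon or UTR positions were not analysed here. A bound compares the array above background with the other array's lowest value above background, or with the dim probe itself where that was higher.

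Probes named in the text are the 10 highest and 10 lowest differences at or above the members' median brightness and 5 each below it, the 5 largest bounds in each direction, the 10 brightest, and those within 50 kb of a gene at least 4-fold different or in the lists of LPS response and regulator genes. Intervals with at least 3 measured probes, genes within 5 kb and the named RNAs were singled out after their values were seen. The comparison with other probes of a target and the subsets of pairs within 5 kb were added after the data were seen. The members, lists and rule were chosen with earlier results of these data known. Functions were tested on simulated data. Tools were Python 3.11.15, numpy 2.4.6, pandas 2.3.3, scipy 1.17.1, matplotlib 3.10.9, R 4.3.3 and limma 3.58.1. Alternatives were normexp with an offset of 50, floored background-subtracted signal, quantile, cyclic loess (span 0.7) and median normalization, other detection filters, 1 probe per target, and other fold and distance limits.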

Additional observations from a re-analysis of the deposited data

How the results depend on the processing

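No paired analysis was possible because each group had 1 array, and for the same reason no array could be left out. The counts of 53 higher and 40 lower members were 8 and 8 with normexp, 354 and 378 with the laxer flag for signal positive and significant, 763 and 778 with no filter, 1 and 0 among brighter probes only, 31 and 23 with 1 probe per target, 180 and 206 at 1.5-fold, and 10 and 10 at 4-fold. Under floored signal, quantile, cyclic loess, median centring and the percentile of detected probes they stayed within 53 to 64 and 32 to 40. The median difference ran from -0.05 to 0.11, changing sign with cyclic loess, no filter and brighter probes. Members 1.5-fold in the direction of a gene past 2-fold, 0 of 21, became 18 of 122 with the laxer flag and 40 of 332 with no filter. No pair was left within 10 kb. With the laxer flag 64.7% and 63.6% of members were above background, and 65.8% and 64.3% of targets had such a probe. Median control brightness was -2.23 with normexp and -2.48 with 1 probe per target. Bounds of at least 2-fold numbered 14 and 11 with normexp and 409 and 400 with the laxer flag, which also gave 824, 214 and 29 intervals with both, 1 and neither strand measured. The same-strand correlation within 5 kb was 0.20 with the laxer flag, 0.05 with no filter, 0.62 with normexp and 0.87 among brighter probes. Of the named members past 2-fold, 4 were below it with normexp and none changed direction. The share of members past 2-fold whose other probes differed the same way, 7.69%, was 0% with normexp, 13.5% with the laxer flag and 8.94% with no filter, and that of named-gene probes, 73.5%, was 84.6%, 45.3% and 24.0%. The cause of these shifts was not tested. Signal over background limits these results: 68.8% of the measured members lay in the dimmest class of brightness, where the median spot SD was 0.19.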
